A study of Arabidopsis thaliana with 12 samples.

Results

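The genes examined were 42 loci of starch synthesis and degradation in the leaf of Arabidopsis thaliana, taken by locus identifier as genes of the pathway, with earlier results of these data known. Of the 6520 locus identifiers that the 4 deposited tables of differentially expressed genes (DEGs) listed, 9 belonged to the 42 (21.4% of the 42, beside 30.5% of all 21349 genes tested that were listed in at least 1 table), and the remaining 33 starch loci were listed nowhere. All plants were Col-0, the Columbia reference accession, well watered and acclimated for 22 days to one of 4 light regimes, with 3 RNA-seq libraries of polyadenylated leaf RNA per regime. In the square regimes, SQH at high and SQL at low intensity, the lamp held one level all day. In the fluctuating regimes, FLH and FLL, the light followed a natural course, and each gave the same light over the day as its square counterpart. Col-0 seed came from a single parent plant, and no mutant or chemical treatment entered these libraries.

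Leaf starch is made in the chloroplast by day and broken down at night to feed the plant. Glucose phosphates are converted to ADP-glucose by ADP-glucose pyrophosphorylase, starch synthases add the glucose to glucan chains, and branching and isoamylase enzymes shape the chains into a granule. At night the dikinases GWD1 and PWD phosphorylate the granule surface, phosphatases of the SEX4 family remove the phosphate, and beta-amylases release maltose. MEX1 exports the maltose to the cytosol, where DPE2 and PHS2 process it, while DPE1 recycles short glucans in the chloroplast. Many of these genes are known to be transcribed in a daily rhythm.

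A table lists a gene when its adjusted p was 0.05 or less and its log2 fold change was 0.5 or more in size, and such a gene is termed called below. The tables hold per gene the mean normalised count over all 12 libraries, the log2 fold change, the standard error (SE) of that change, and no value per library, so the spread between replicates enters through the SE alone and levels cannot be given library by library. A gene missing from a table was not called there or was not tested, and its size of change is not known. A positive fold change is read here as higher expression in the regime named first. The SEs of the tables required this reading in 439 of 439 checks, whereas the study labels the sides of its plots in the opposite sense, under which every direction below would reverse. Of 10 leaf genes checked, 6 were listed in at least 1 table. Of the 10, 4 were higher in SQH than in FLH (RBCS2B, RBCS3B, RCA and CA1) and 4 were higher in FLL than in FLH (RBCS3B, RCA, LHCB1.1 and LHCB2.1), 40.0% each beside 22.2% and 9.89% of all genes tested, and their part in the starch gene values was not tested. In bulk leaf RNA, fewer cells of a type and less RNA per cell cannot be told apart. Tissue was harvested close to midday in a fixed order of regimes, so the light at the moment of harvest and the regime cannot be told apart either. By the alignment statistics of the study, the FLL libraries and 1 SQL library differ from the others. Their part in the values with FLL, and in the SEs of every comparison, was not tested.

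Starch genes were called mainly where the light pattern changed at high intensity. Between SQH and FLH, 9 of 42 were called (21.4%), close to the 22.2% of all genes tested that were called there. Between FLH and FLL, 1 of 42 was called (2.38%), beside 9.89% of all genes tested. Between SQL and FLL it was also 1 of 42, beside 8.2% of all genes tested. Between SQH and SQL 0 of 42 starch genes were called by the deposited DESeq2 test, beside 3.11% of all genes tested. The number at an unadjusted p under 0.05 is not known, since unlisted genes carry no p in the tables. Taken over all 42, the share of starch genes called was in no comparison above that of all genes tested. How many of the 42 were tested is not known, so the near-level shares between SQH and FLH cannot be ordered. The description below rests on which of the starch genes were called and how far they differed.

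**Figure D1:**
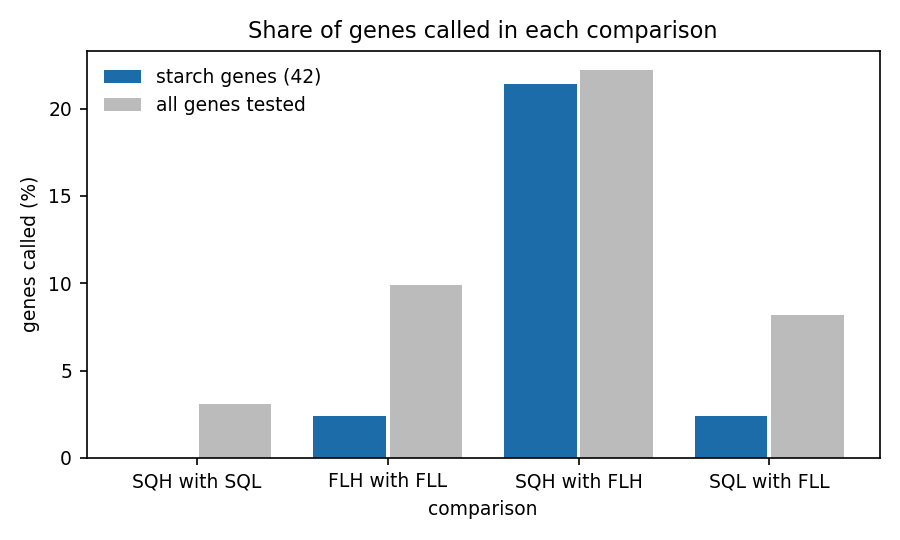
Bars give the percentage of genes called in each comparison, for the 42 starch genes (blue) and for all genes tested (grey). The pair of bars is nearly level for SQH with FLH (21.4% and 22.2%), and the starch bar is the lower of the pair in the other comparisons.

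By direction, 7 of 42 starch genes were higher in SQH than in FLH (16.7%, against 10.1% of all genes tested) and 2 of 42 were higher in FLH (4.76%, against 12.1%). The median log2 fold change of the 9 called starch genes was 1.46, and that of all 4635 genes called between SQH and FLH was -0.87. No called gene lies below 0.5 in size, so these signed medians mainly restate the split by direction. Of all genes called there, 45.4% were higher in SQH. The median absolute log2 fold change of the 9 starch genes, 1.88, was near the 1.80 of all genes called. The 7 genes higher in SQH were APL3, SS2, SS3, BAM2, BAM8, BAM9 and AMY2. The 2 genes higher in FLH were PWD and DPE1, both of chloroplast starch breakdown. Of the 16 synthesis genes, 3 were called (18.8%), all higher in SQH. Of the 25 genes of breakdown and export, 6 were called (24.0%), with 4 higher in SQH (16.0%) and 2 in FLH (8.0%). Both shares called lie near the 22.2% of all genes tested, and the difference between the groups was not tested.

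**Figure D2:**
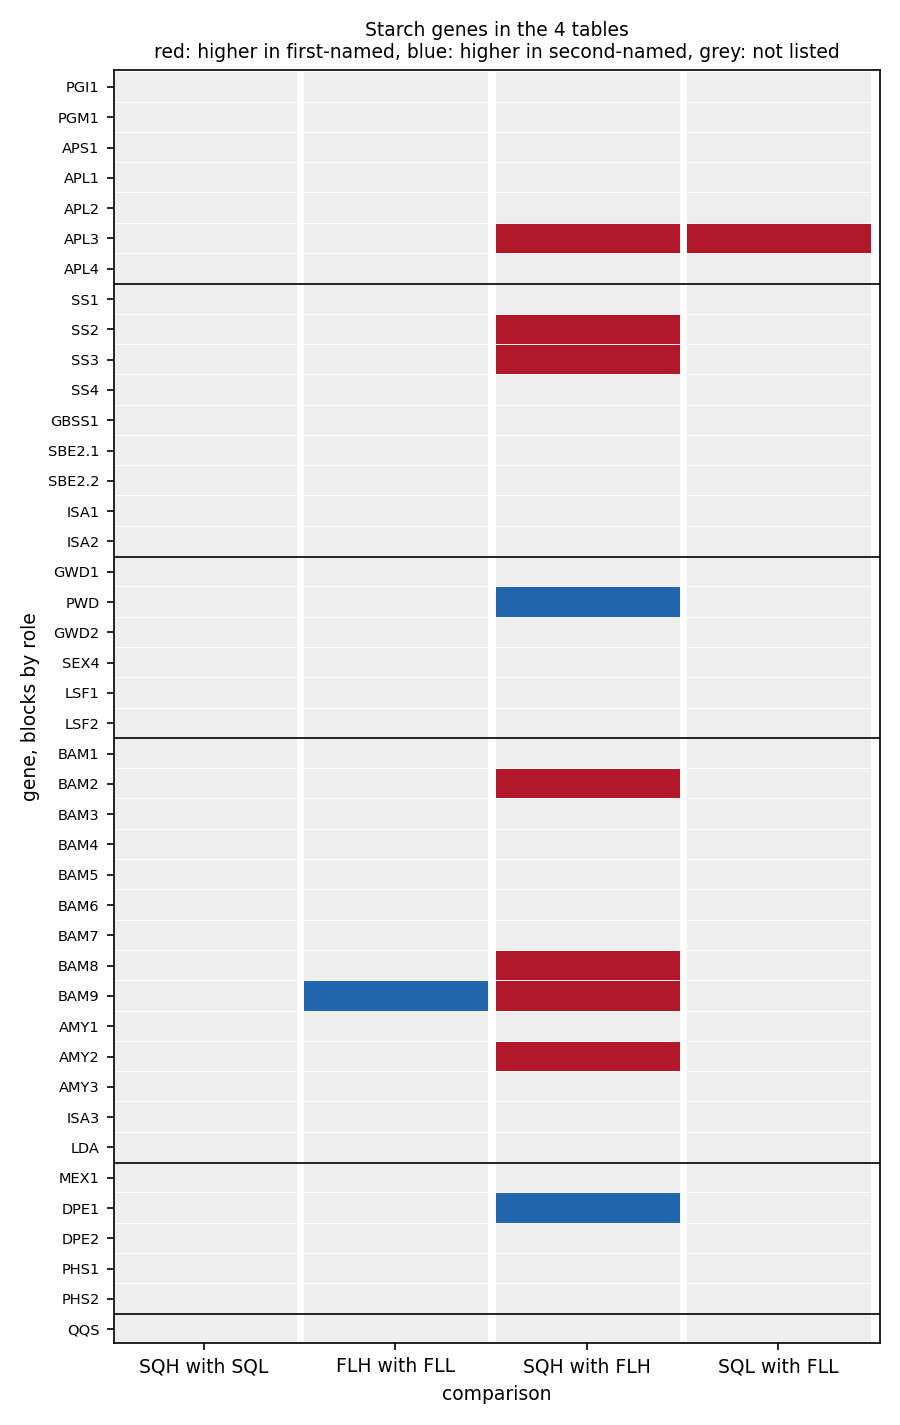
Each row is one of the 42 starch genes, in blocks by role, and each column one comparison. Red marks a gene called higher in the first-named regime, blue one called higher in the second-named regime, and grey a gene not listed. The column for SQH with FLH holds 9 of the 11 coloured cells, and that for SQH with SQL holds 0.

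At the stricter adjusted p of at most 0.01, the 9 starch genes called between SQH and FLH came down to 4 of 42 (9.52%, beside 13.4% of all genes tested), namely SS3, BAM2, BAM8 and DPE1, with 3 higher in SQH. BAM8 passed this level narrowly, at an adjusted p of 0.00998, and AMY2 missed it narrowly, at 0.01003. Neither APL3 call held at this level.

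The promoters of 4 genes are shown because they belong to the genes higher in FLH and to a pair higher in SQH, and hold most of the motif matches among the called genes. Each window runs from 250 bases before the annotated gene start to 50 after it, on the strand of the gene, in the TAIR10.1 assembly with RefSeq gene models. Capitals mark matches, on either strand, to the evening element AAAATATCT (bound by clock proteins of the CCA1 type), the G-box CACGTG (bound by bHLH and bZIP factors) and the sugar starvation element TATCCA. The first pair are the genes higher in FLH than in SQH, and the second pair are genes higher in SQH.
PWD (chr5:9261229-9261528, plus strand): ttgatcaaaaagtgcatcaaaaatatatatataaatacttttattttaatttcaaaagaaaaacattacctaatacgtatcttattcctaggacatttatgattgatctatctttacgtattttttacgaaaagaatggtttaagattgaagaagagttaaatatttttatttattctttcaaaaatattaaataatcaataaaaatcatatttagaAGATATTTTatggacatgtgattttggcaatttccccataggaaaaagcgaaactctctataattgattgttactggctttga
DPE1 (chr5:25928830-25929129, minus strand): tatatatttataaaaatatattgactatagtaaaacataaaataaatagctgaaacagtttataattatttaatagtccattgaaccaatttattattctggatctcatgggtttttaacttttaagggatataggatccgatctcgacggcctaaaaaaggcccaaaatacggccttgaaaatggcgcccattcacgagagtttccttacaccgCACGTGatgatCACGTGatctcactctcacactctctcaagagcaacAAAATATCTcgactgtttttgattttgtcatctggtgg
BAM2 (chr4:222039-222338, plus strand): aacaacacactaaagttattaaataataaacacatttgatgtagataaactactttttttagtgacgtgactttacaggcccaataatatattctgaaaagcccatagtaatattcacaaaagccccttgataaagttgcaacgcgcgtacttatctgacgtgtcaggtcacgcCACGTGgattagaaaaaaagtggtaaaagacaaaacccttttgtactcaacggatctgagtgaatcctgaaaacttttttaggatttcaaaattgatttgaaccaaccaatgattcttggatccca
BAM9 (chr5:6225706-6226005, plus strand): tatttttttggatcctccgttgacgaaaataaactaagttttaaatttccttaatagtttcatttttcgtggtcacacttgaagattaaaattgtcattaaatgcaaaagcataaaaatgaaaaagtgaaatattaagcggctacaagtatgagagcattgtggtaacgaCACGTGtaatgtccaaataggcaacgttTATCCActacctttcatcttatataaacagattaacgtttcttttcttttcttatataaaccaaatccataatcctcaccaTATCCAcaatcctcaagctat

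The evening element was present in the windows of PWD and DPE1, the 2 of 2 starch genes higher in FLH, and in 0 of the 7 higher in SQH. It began 33 bases before the gene start of PWD, on the reverse strand, and 13 bases after that of DPE1. The other starch genes that hold it, PGM1, GWD1 and ISA3, were not listed in any table. In all, 5 of 42 starch windows held it (11.9%), against 2.82% of the windows of 27443 protein-coding genes. Among all genes called between SQH and FLH, it was in 6.51% of the 2475 windows of genes higher in FLH and in 1.71% of the 2050 windows of genes higher in SQH.

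The G-box was present in 12 of 42 starch windows (28.6%), against 7.68% of all windows. It was in 3 of the 7 starch genes higher in SQH (SS3, BAM2 and BAM9) and in 1 of the 2 higher in FLH (DPE1, which holds 2 copies, 35 and 24 bases before its start). In BAM2 and BAM9 it began 76 and 80 bases before the gene start. It was in 4 of the 9 called starch genes (44.4%) and in 8 of the 33 not listed (24.2%), a difference that was not tested. The sugar starvation element was in 5 of 42 starch windows (11.9%, against 16.1% of all windows), including 2 copies in BAM9 and 1 in AMY2. The CCA1 binding site AAAAATCT was in 4 of 42 (9.52%, against 7.88%) and in none of the 9 called genes, and CACGTGTG, the element of BZR1-type factors, which contains the G-box, was in PHS2 alone of the 42 (2.38%, against 0.955%). These matches are descriptions of the letters in the windows, and binding was not measured.

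For the supply of ADP-glucose, 1 of 7 genes was called in each pattern comparison (14.3%, beside 22.2% of all genes tested at high and 8.2% at low intensity), the large-subunit gene APL3 (AT4G39210, chromosome 4 from 18259547 to 18263468, plus strand). ADP-glucose pyrophosphorylase pairs the catalytic small subunit APS1 with one of 4 large subunits, and APL3 is known for its induction by sugars and its expression in sink tissue. APL3 had a mean normalised count of 2638. It was 2.75-fold higher in SQH than in FLH (log2 fold change 1.46, SE 0.55, adjusted p 0.0379) and 3.61-fold higher in SQL than in FLL (log2 fold change 1.85, SE 0.55, adjusted p 0.0197).

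APL3 was the one starch gene called for light pattern at both intensities, in comparisons that share no library, and both differences had the same direction. The difference between the 2 effects was -0.40 on the log2 scale (95% interval -1.91 to 1.12), and a two-sided z test gave an adjusted p of 0.971 over the 641 genes listed in both tables. Only genes called in both could enter, and those of opposite direction pass by this selection. The adjusted p therefore applies to a selected set and not to all genes. The interval is wide enough to hold an effect at either intensity that is more than 1 log2 unit larger than the other. Neither intensity comparison listed APL3, where a log2 fold change of about 1.73 between SQH and SQL, or 1.54 between FLH and FLL, would have been needed at its SE. PGI1 and PGM1, which supply glucose 1-phosphate, and the subunits APS1, APL1, APL2 and APL4 were not listed.

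For chain synthesis, 2 of 9 genes were called between SQH and FLH (22.2%, the same share as of all genes tested), and both encode soluble starch synthases. SS3 (AT1G11720, chromosome 1 from 3951366 to 3957044, plus strand), which makes long chains and supports granule initiation, had a mean normalised count of 4515. It was 2.68-fold higher in SQH (95% interval 1.73 to 4.16) at a log2 fold change of 1.42, with an SE of 0.32 and an adjusted p of 0.000219. This was the smallest adjusted p of any starch gene between SQH and FLH, at rank 1065 of the 4635 genes called.

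SS2 (AT3G01180, chromosome 3 from 62245 to 66111, minus strand), which extends chains to intermediate length, had a mean normalised count of 3886. It was 3.02-fold higher in SQH (log2 fold change 1.59, SE 0.50, adjusted p 0.0106). The SE of SS3 would have allowed a call between SQL and FLL at a log2 fold change of about 0.93, and that of SS2 at 1.44. Neither SS3 nor SS2 was listed there, although their log2 fold changes at high intensity, 1.42 and 1.59, would have been enough. The same held at their own SEs for PWD, BAM2, BAM8, AMY2 and DPE1, but not for BAM9. The difference of the pattern effect between intensities was not tested for SS2 and SS3, since it needs a value in both tables. SS1, SS4, the granule-bound synthase GBSS1, the branching enzymes SBE2.1 and SBE2.2, and the isoamylase subunits ISA1 and ISA2 were not listed.

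**Figure D3:**
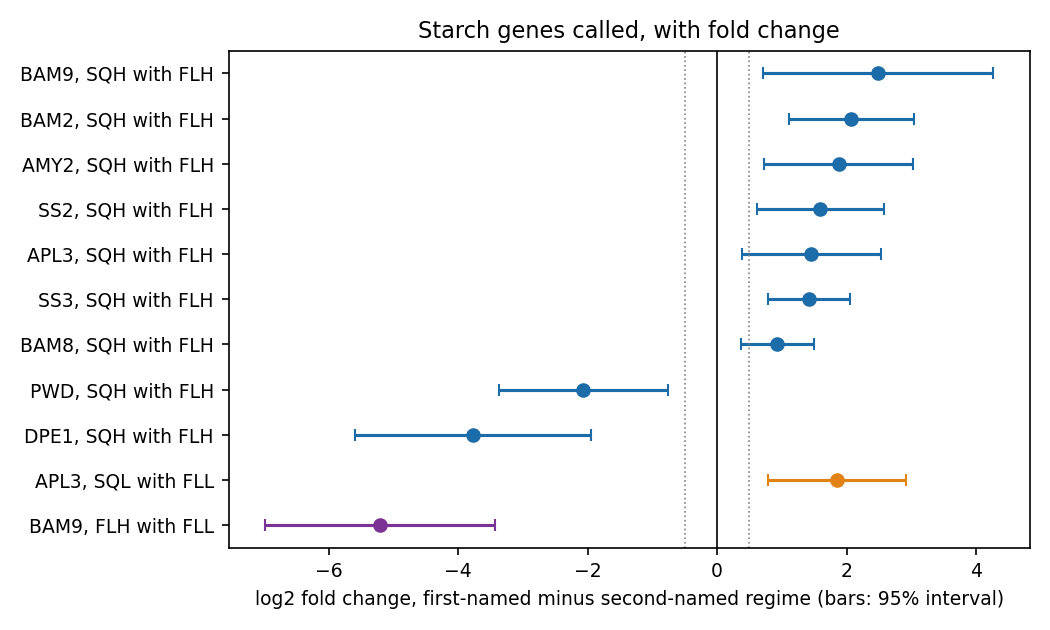
Points give the log2 fold change of the starch genes called, first-named minus second-named regime, with 95% intervals from the SE, and dotted lines mark 0.5 in either direction. Between SQH and FLH, 7 points lie to the right (higher in SQH) and PWD and DPE1 to the left, and BAM9 changes side between SQH with FLH and FLH with FLL.

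Among genes that add or remove phosphate on the granule, 1 of 6 was called between SQH and FLH (16.7%, beside 22.2% of all genes tested). PWD (AT5G26570, chromosome 5 from 9261479 to 9267732, plus strand) encodes the dikinase that acts on glucan already phosphorylated by GWD1, and had the highest mean normalised count of the called starch genes, 5759. It was 4.18-fold higher in FLH than in SQH (log2 fold change -2.06, SE 0.66, adjusted p 0.0128). GWD1, whose product acts before PWD, was not listed, nor were GWD2, the phosphatase genes SEX4 and LSF2, or LSF1, a relative of SEX4.

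Of the 9 beta-amylase genes, 3 were called between SQH and FLH (33.3%, beside 22.2% of all genes tested), and the called genes do not include BAM1 and BAM3, which encode the main chloroplast enzymes of starch breakdown. BAM2 (AT4G00490, chromosome 4 from 222289 to 225131, plus strand), which encodes a chloroplast enzyme whose loss has little effect on leaf starch, had a mean normalised count of 3664 and was 4.21-fold higher in SQH than in FLH (log2 fold change 2.08, SE 0.50, adjusted p 0.000473). BAM8 (AT5G45300, chromosome 5 from 18353525 to 18356888, plus strand) encodes a nuclear protein with a DNA-binding domain of the BZR1 type. It had the lowest mean normalised count of the called starch genes, 798, and the smallest change, 1.91-fold higher in SQH (log2 fold change 0.93, SE 0.29). These are the called beta-amylase genes with a call in a single table.

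BAM9 (AT5G18670, chromosome 5 from 6225956 to 6228195, plus strand), which encodes a chloroplast member of the family without catalytic activity, had the largest change of any starch gene. Its mean normalised count was 4062. It was 36.9-fold lower in FLH than in FLL (log2 fold change -5.20, SE 0.91, 95% interval for the fold 10.7 to 127, adjusted p 2e-06), the only starch gene called for light intensity. This change was larger in size than 97.1% of the 2063 changes listed for FLH with FLL, and its p ranked 104 among them. BAM9 was also 5.60-fold higher in SQH than in FLH (log2 fold change 2.49, SE 0.91, adjusted p 0.0324).

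Both BAM9 comparisons contain FLH and share its libraries, so they are not independent of each other. In both of them FLH had the lower BAM9 level. The log2 difference of SQH from FLL, obtained by subtraction, was -2.72, a contrast with no table and no test of its own. Because the mean over all libraries is fixed, the level of BAM9 can have been at most about 374 normalised counts in FLH, 2094 in SQH and 13781 in FLL. These values would be reached only if SQL were at 0, and they are loose limits, since BAM9 was not called between SQL and FLL. BAM9 was not listed between SQL and FLL, where a log2 fold change of about 2.61 was needed at its SE, nor between SQH and SQL, where 2.87 was needed. BAM4, BAM5, BAM6 and BAM7, the last of which encodes the other nuclear protein of the BAM8 type, were not listed.

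Among the other hydrolases, AMY2 (AT1G76130, chromosome 1 from 28560629 to 28564159, plus strand), an alpha-amylase gene whose product lies outside the chloroplast, had a mean normalised count of 1603 and was 3.68-fold higher in SQH than in FLH (log2 fold change 1.88, SE 0.59). AMY3, which encodes the chloroplast alpha-amylase, was not listed, nor were AMY1 and the debranching enzyme genes ISA3 and LDA.

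Of the 5 genes of maltose export and glucan recycling, 1 was called between SQH and FLH, DPE1 (20.0%, beside 22.2% of all genes tested). DPE1 (AT5G64860, chromosome 5 from 25925173 to 25928879, minus strand) encodes the chloroplast disproportionating enzyme, which acts on maltotriose and releases glucose. Its mean normalised count was 1335, and it was 13.7-fold higher in FLH than in SQH (log2 fold change -3.77, SE 0.93, 95% interval for the fold 3.86 to 48.3, adjusted p 0.00075). This was the largest change of a starch gene between SQH and FLH, larger in size than that of 89.1% of genes called there. The level of DPE1 can have been at most about 365 normalised counts in SQH and 4977 in FLH. These loose limits would be reached only if SQL and FLL held no DPE1 counts. MEX1, DPE2, PHS1, PHS2 and QQS, an orphan gene whose loss raises leaf starch, were not listed.

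Per kilobase of exon, the mean normalised count of the called genes ran from 336 for BAM8 through 660 for DPE1 and 815 for AMY2 to 1804 for BAM2 and 2042 for BAM9. SS3, APL3, SS2 and PWD lay between these, at 1190, 1255, 1286 and 1477. These levels are means over all libraries and carry no error of their own, so the order of close neighbours such as APL3 and SS2 is not established. In 4 of the 9 called genes the annotation overlaps a gene on the opposite strand, by 33 bases in BAM9, 47 in SS2, 104 in BAM2 and 240 in SS3, and the strandedness of the counting is not given in the sources used here.

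The called starch genes differed in how well they were measured. Expressed as a coefficient of variation between replicates, the SE amounted to 24.6% for BAM8, 27.5% for SS3, 42.1% for BAM2, 42.5% for SS2, 46.4% for APL3, 49.7% for AMY2 and 56.2% for PWD between SQH and FLH. It was 77.1% for BAM9 and 79.0% for DPE1. Of genes called between SQH and FLH with a mean normalised count within a factor of 2, 97.4% had a smaller SE than BAM9 and 97.6% a smaller SE than DPE1, and their median coefficients of variation were 36.9% and 34.0%. The largest fold changes among the called starch genes were thus those with the widest error, which the rule for a call favours. At their SEs, BAM9 and DPE1 could be called between SQH and FLH only at a log2 fold change of about 2.30 and 2.36 in size.

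**Figure D4:**
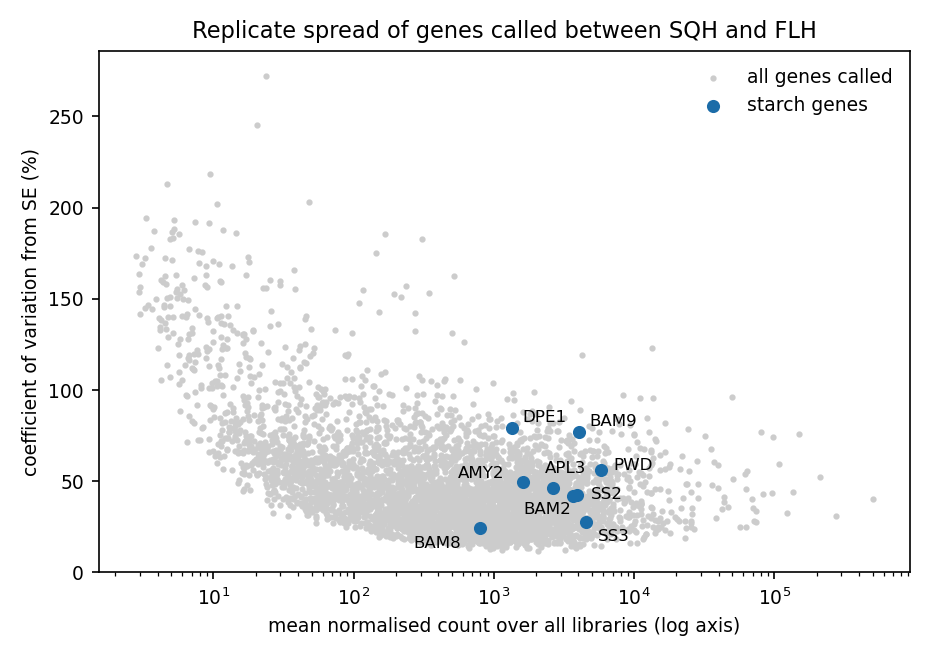
Each grey point is one of the genes called between SQH and FLH, with its mean normalised count over all libraries on a log axis and the coefficient of variation that its SE corresponds to. Blue points are the 9 starch genes. BAM9 and DPE1 stand above most genes of like count, at 77.1% and 79.0%, and BAM8 and SS3 lie low in the cloud, at 24.6% and 27.5%.

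Pathway genes outside the 42 were read from a list of 24, also written with earlier results known. The list covers granule proteins, plastid sugar transporters and cytosolic sucrose synthesis, a class that also holds the hexokinase gene HXK1. Between SQH and FLH, 8 of 24 were called (33.3%, beside the 22.2% of all genes tested), 7 of them higher in SQH. These included 6 of the 13 genes of the cytosolic class, all higher in SQH. Among them were the sucrose phosphatase gene SPP2 (log2 fold change 1.65, SE 0.39, adjusted p 0.000347) and HXK1 (log2 fold change 1.37, SE 0.28, adjusted p 2.33e-05). The plastid glucose transporter gene pGlcT was higher in FLH (log2 fold change -1.75, SE 0.66, adjusted p 0.0389), the direction of PWD and DPE1.

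Between FLH and FLL 5 of 24 were called, and between SQL and FLL also 5 of 24 (20.8% each, beside 9.89% and 8.2% of all genes tested). ESV1, a gene for a granule protein that restrains starch breakdown, was lower in FLH than in FLL (log2 fold change -2.22, SE 0.46, adjusted p 0.00012) and lower in SQL than in FLL (log2 fold change -1.71, SE 0.46, adjusted p 0.00907), comparisons that share FLL. LESV, which encodes a close relative of ESV1, went the other way between FLH and FLL and was higher in FLH (log2 fold change 2.25, SE 0.74, adjusted p 0.0325). GPT2, which encodes a glucose 6-phosphate translocator of plastids, was the 1 gene of the 24 called between SQH and SQL, where it was 7.86-fold higher in SQH (log2 fold change 2.97, SE 0.75, adjusted p 0.00576). GPT2 was also 22.5-fold higher in FLH than in FLL (log2 fold change 4.49, SE 0.75, adjusted p 5.68e-07), and the intensity effects under square and fluctuating light differed by -1.52 (95% interval -3.60 to 0.56, two-sided z test, adjusted p 0.195 over 141 genes). No starch gene of the 42 was listed in both intensity comparisons.

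**Figure D5:**
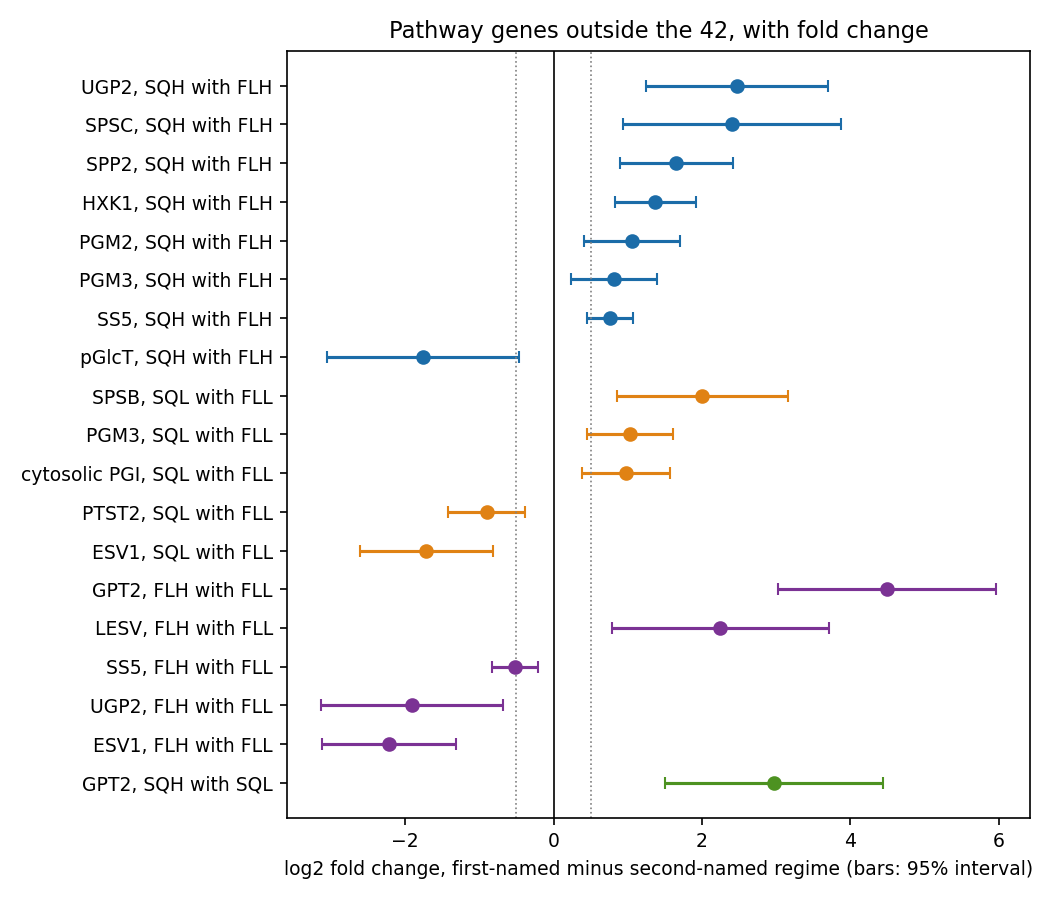
Points give the log2 fold change of the pathway genes outside the 42 that were called, first-named minus second-named regime, with 95% intervals from the SE. Blue is SQH with FLH, orange SQL with FLL, purple FLH with FLL and green SQH with SQL. Between SQH and FLH 7 of 8 points lie to the right, and GPT2 lies to the right in both intensity comparisons.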

How the data were processed

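The authors aligned the reads of 12 leaf libraries to TAIR10 with HISAT2 and tested regimes with DESeq2; the submitters' processing notes also name SAMtools and featureCounts. The deposited tables give a signal (counts scaled by size factors and averaged across the libraries), a log2 fold change with its SE on the log2 scale, a Wald score, and the authors' p-value and adjusted p-value. They hold the authors' own comparisons and no values per library, so every fold change, SE and p printed is as deposited, and no model was refitted. The p-values rest on the spread between replicates, 3 per regime, estimated per gene in 1 fit over all 12 libraries. Depth per library entered through the size factors of the authors and is not in the tables. For a gene in several tables the mean was identical in all 2842 pairs of rows, so 1 fit underlies all tables.

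Dividing adjusted p by p gave back how many genes were tested (20865, and 21349 for SQH with SQL). The coefficient of variation is the SE on the natural log scale times the root of 3 over 2. The fold change needed for a call is the SE multiplied by the smallest absolute Wald score listed in a table. Ceilings on levels divide the sum over 4 regimes by the fold changes, and approximate fitted by arithmetic means. Differences between comparisons without common libraries used a two-sided z test with Benjamini-Hochberg adjustment over all genes in both tables, tested on simulated data. Only genes called in both comparisons could enter, a selection that the simulated data did not include. Every called starch gene is named. The genes and lists were chosen with earlier results of these data known. Scripts used Python 3.11.15, pandas 2.3.3 and scipy 1.17.1. Coordinates and windows come from TAIR10.1 with RefSeq models, whose build name differs from the authors' TAIR10. Alternatives were stricter thresholds, a filter at 100 normalised counts and Bonferroni adjustment.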

Additional observations from a re-analysis of the deposited data

How the results depend on the processing

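Of the 11 calls of starch genes, 10 held when the log2 fold change had to reach 1 in size (BAM8 did not), 9 when the 95% interval had to lie beyond 0.5 (APL3 between SQH and FLH and BAM8 did not), 11 at a mean normalised count of at least 100, and 5 with the adjusted p held to 0.01 or less. That last setting lowered the count between SQH and FLH from 9 to 4 and that between SQL and FLL from 1 to 0, by its stricter threshold. The count of 1 between FLH and FLL stayed as it was in all 4 of these settings. Each setting can only remove calls, so the count of 0 between SQH and SQL could not change. The filter at 100 could remove none, since the lowest mean normalised count of a called starch gene was 798. APL3 was not called in the interaction test at an adjusted p of 0.05. Bonferroni adjustment and a threshold of 0.01 are stricter, so neither could have changed that outcome. Leaving out single replicates was not run, since the tables hold no values per library. No paired analysis was possible because the tables carry no values per replicate. No starch gene was in 3 tables, so closure through other tables gave no value.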
